A study of Homo sapiens with 6 samples.

Results

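Metallothioneins were examined in MDA-MB-453, a line of human breast cancer cells, together with the factor that senses metal and a zinc exporter under its control. The 10 genes were chosen by name: MT2A, MT1A, MT1E, MT1F, MT1G, MT1H, MT1M, MT1X, MTF1 and SLC30A1. The gene count table held 36517 entries, and 9 of the 10 names were among them. MT1A was not listed and was not analysed here. Of the 9, 5 passed the filter on low counts, out of 19628 genes tested in all. These were MT2A, MT1X, MT1F, MTF1 and SLC30A1.

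The study asked what lowering tRF-1-Ser, a small RNA derived from the 3′ trailer of a serine tRNA precursor, does to these cells. Control cells carried a lentivirus with a negative-control hairpin (shNC), and shtRF cells carried a lentivirus with a hairpin against tRF-1-Ser. Each group had 3 mRNA libraries, taken at day 3, from a single cell line and a single hairpin per arm. The study's methods call the mRNA replicates biological, but neither they nor the labels say that these came from separate cultures, so p-values measure the spread between these libraries, which may be technical. The mRNA libraries did not measure tRF-1-Ser, so the knock-down itself was not checked here.

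Metallothioneins are very small, cysteine-rich proteins that bind zinc, copper and cadmium through their thiol groups. They buffer cellular zinc, bind toxic metals and react with oxidants. Their genes sit side by side on chromosome 16, and zinc induces them through MTF1, a zinc finger protein that binds metal response elements in their promoters. Glucocorticoids are also known inducers of MT2A. SLC30A1 carries zinc out of the cell across the plasma membrane and is another classical target of MTF1.

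The coding sequences are printed first, because the close likeness of these genes bears on how far a read can be given to a single one of them. MT2A and the 3 MT1 members with the most counts in any library are shown, 5′ to 3′ on the gene's strand, from GENCODE release 29 (GRCh38). A capital marks a base that differs from MT2A at the same position. The coding spans, introns included, are chr16:56608656-56609354 for MT2A, chr16:56682541-56684049 for MT1X, chr16:56658059-56659164 for MT1F and chr16:56625852-56626971 for MT1E.
MT2A: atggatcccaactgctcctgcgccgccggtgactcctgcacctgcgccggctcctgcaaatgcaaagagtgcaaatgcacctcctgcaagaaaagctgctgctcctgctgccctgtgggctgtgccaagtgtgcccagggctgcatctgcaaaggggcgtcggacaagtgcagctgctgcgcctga
MT1X: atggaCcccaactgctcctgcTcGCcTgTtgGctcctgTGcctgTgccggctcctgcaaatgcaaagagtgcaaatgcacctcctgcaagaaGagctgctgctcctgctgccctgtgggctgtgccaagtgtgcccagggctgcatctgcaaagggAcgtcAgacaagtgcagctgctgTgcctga
MT1F: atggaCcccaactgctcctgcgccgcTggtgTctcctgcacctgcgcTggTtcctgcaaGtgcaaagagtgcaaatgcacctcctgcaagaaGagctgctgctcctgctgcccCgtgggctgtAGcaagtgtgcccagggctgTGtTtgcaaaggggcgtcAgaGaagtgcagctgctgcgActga
MT1E: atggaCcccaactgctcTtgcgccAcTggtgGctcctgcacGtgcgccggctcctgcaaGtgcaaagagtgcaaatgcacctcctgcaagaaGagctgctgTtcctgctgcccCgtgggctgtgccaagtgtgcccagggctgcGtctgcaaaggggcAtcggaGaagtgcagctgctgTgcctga
Each of the 4 has 186 coding bases with the stop codon, and 20 of its 61 amino-acid codons encode cysteine. MT1X and MT1E each differ from MT2A at 14 bases, and MT1F differs at 16. The capitals are spread over the sequence, with unbroken stretches of lower case between them. MT2A matched the 7 MT1 members at 89.8% to 93.7% of aligned coding bases (median 92.5%). The 21 pairs of MT1 members matched each other at 88.7% to 94.6% (median 91.5%).

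Few stretches of the whole transcripts were shared exactly. Among windows of 50 bases along the annotated transcripts, 3.02% of those of MT2A occurred without mismatch in another gene of the family. The share was 3.64% for MT1X and 1.22% for MT1F, and it reached 16.5% for MT1G and 15.8% for MT1H. At 100 bases only MT1H among the members still had a shared window, in 1.39% of its windows. At 150 bases, the read length per the labels, none of the 8 metallothionein members shared an exact window with another. Reads placed with mismatches were not tested, and how the authors treated reads with several matches is not given in the sources used here. Values of single MT1 genes are therefore uncertain, and totals over the family are given beside them.

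Promoters were searched for the letters of the element that MTF1 binds. The core of the metal response element was searched as TGCACNC and TGCGCNC on both strands of the 250 bases before each RefSeq start (GRCh38.p14). The table held a promoter for 5 of the 10 genes: MT2A, MT1H, MT1X, SLC30A1 and MTF1. A selection of matches from the 3 tested genes that hold any is listed, with the core in capitals and 10 bases on each side, read 5′ to 3′ on the strand that holds the core.
MT2A, chr16:56608421-56608447, gene strand: cagagccgggTGCGCCCggcccagtgc
MT2A, chr16:56608435-56608461, gene strand: cccggcccagTGCGCGCggccgggtgt
MT2A, chr16:56608486-56608512, opposite strand: gggcgctgccTGCACACgccccgcgct
MT2A, chr16:56608520-56608546, gene strand: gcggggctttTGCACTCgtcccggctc
MT1X, chr16:56682407-56682433, gene strand: gcggggcctcTGCGCCCggccctcttc
SLC30A1, chr1:211579194-211579220, opposite strand: aactttgcttTGCACTCggaacccccg
The MT2A promoter held 7 matches, 5 of them on the gene's strand, and no 2 matches overlapped. MT1H held 8 matches, MT1X held 4 and SLC30A1 held 1. The MTF1 promoter held 0, which says only that these letters were not in that window. Among all 35116 promoters in the table, 24.8% had at least 1 match, 0.370% had at least as many as MT1X, and 0.031% had at least as many as MT2A. A match is a run of letters and not a measured binding site.

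**Figure D1:**
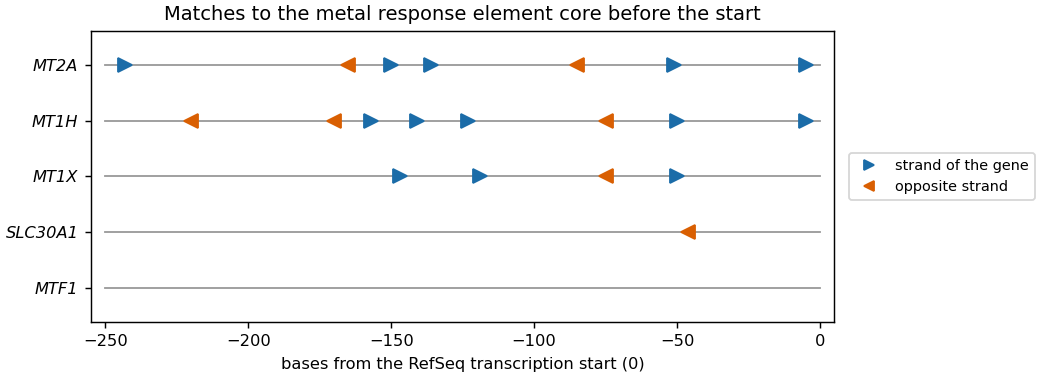
Positions of matches to the metal response element core, in bases from the RefSeq transcription start at 0 on the x axis, for the 5 genes with a promoter entry. Triangles point along the strand that holds the core. MT2A has 7 matches, MT1H 8, MT1X 4, SLC30A1 1 and MTF1 0.

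The libraries held 63541413 to 78917459 counts. Over all tested genes, 39.5% passed the test (adjusted p below 0.05, edgeR quasi-likelihood test with Benjamini-Hochberg adjustment), with 20.6% higher and 18.9% lower in shtRF cells. In 48.7% of tested genes the 3 values of one group did not overlap those of the other. The label of the cell line was checked against markers. The luminal genes EPCAM, KRT8, KRT18, FOXA1, SPDEF, TFAP2B and ERBB2 lay between 31.0 and 404 RPKM (counts per kilobase of exon, scaled to the library total). ESR1 and PGR were at most 0.0274 RPKM, although TP63, a marker of another breast lineage, lay between 0.225 and 0.457 RPKM. The leukocyte genes PTPRC and CD3E had at most 5 counts in any library. Of 2 hepatocyte genes, APOA1 had at most 3 counts, but ALB lay between 0.774 and 3.59 RPKM. The fibroblast genes DCN and COL1A2 reached at most 20 counts, although COL1A1 lay between 2.04 and 3.64 RPKM.

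Of the 5 tested genes, 1 rose and 1 fell in shtRF cells. MTF1, the metal sensor, was higher and SLC30A1, the zinc exporter, was lower, both by a small amount. The 3 tested metallothioneins did not pass the test. Called genes were thus 2 of 5, against 39.5% of all tested genes. Values of 3 of the 5 did not overlap between the groups (MT1X, MTF1 and SLC30A1), against 48.7% of all tested genes.

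MT2A took nearly all counts of the listed metallothionein genes, of which MT1A was not one. It spans chr16:56608199-56609497 on the plus strand, with 1299 exonic bases. The control libraries gave 81.7, 85.6 and 76.6 CPM (counts scaled to library size), and the shtRF libraries gave 83.5, 77.5 and 67.8 CPM. The first shtRF library lay within the control range, so the groups overlapped, and the third shtRF library was the lowest of the 6. Group means were 81.3 ± 4.48 CPM in control cells and 76.2 ± 7.92 CPM in shtRF cells (SD, n = 3 each). The log2 fold change was -0.09 ± 0.07 (SE), with a 95% interval of -0.23 to 0.05 and an edgeR adjusted p of 0.298. A miss of the threshold does not show that the levels were equal.

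**Figure D2:**
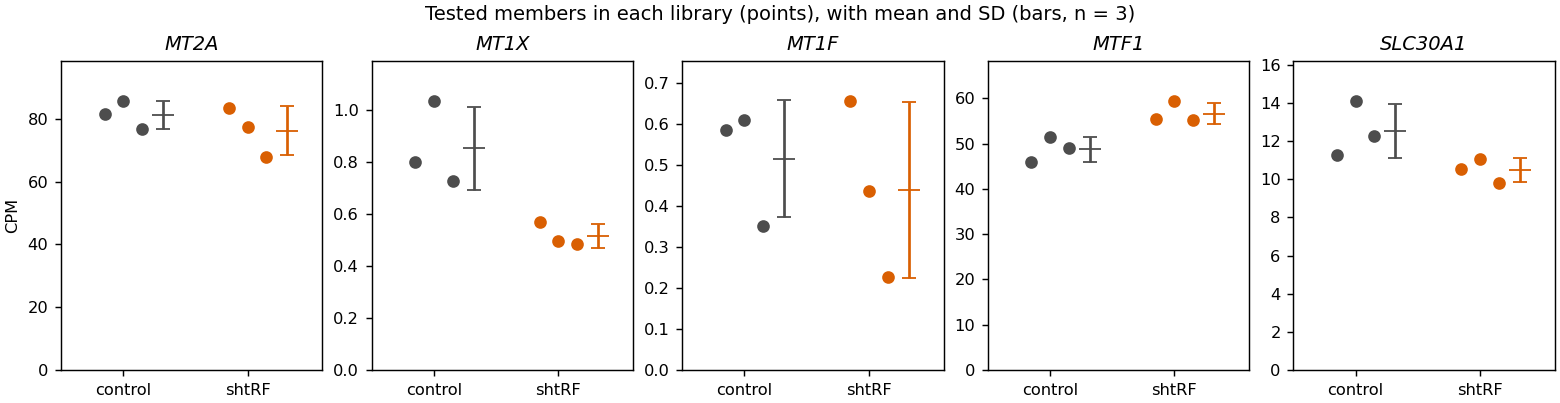
Level in CPM (y axis) of the 5 tested members in the 3 control and the 3 shtRF libraries, 1 point per library with the group mean and SD. The groups overlap in MT2A, which lies between 67.8 and 85.6 CPM, and are apart in MTF1, MT1X and SLC30A1.

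MT1X was the next most abundant metallothionein and lay far below MT2A. It spans chr16:56682424-56684196 on the plus strand (1773 exonic bases). It had 52, 78 and 58 counts in the controls against 40, 34 and 30 after knock-down, or 0.799, 1.03 and 0.727 CPM against 0.569, 0.495 and 0.484 CPM. All 3 shtRF values lay below all 3 control values. Means were 0.853 ± 0.160 and 0.516 ± 0.0466 CPM (SD, n = 3 each), a log2 fold change of -0.72 ± 0.30 (SE) with a 95% interval of -1.34 to -0.10. The edgeR adjusted p was 0.0603, which missed the threshold. It was missed in 10 of 13 alternatives as well, with adjusted p up to 0.225 without control replicate 2. Adjusted p was 0.0486 with upper-quartile scaling, 0.0428 with a filter of at least 10 counts in every library and 0.0459 with all counts divided by 2, each by edgeR.

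Judged by the counts, most of the reads counted for MT1X may also have been counted for a second gene on the same strand. Only counts per gene were available, so this was not checked read by read. RP11-343H19.2 (chr16:56682470-56687807) shares 321 of the 1773 exonic bases of MT1X. Its counts were 46, 71 and 53 in control and 36, 28 and 29 in shtRF libraries. MT1X exceeded it by only 6, 7 and 5 counts in control and by 4, 6 and 1 counts in shtRF libraries. The log2 fold change of RP11-343H19.2 was -0.73 (edgeR adjusted p = 0.0712). The reads of these overlapping genes cannot be told apart in the count table.

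MT1F spans chr16:56657694-56660698 on the plus strand (1889 exonic bases). It had 38, 46 and 28 counts in control and 46, 30 and 14 in shtRF libraries, or 0.584, 0.609 and 0.351 against 0.655, 0.437 and 0.226 CPM. The groups overlapped, with the highest and the lowest of the 6 values both in shtRF libraries. Means were 0.515 ± 0.142 and 0.439 ± 0.215 CPM (SD, n = 3 each). The log2 fold change was -0.21 ± 0.41 (SE), the 95% interval ran from -1.06 to 0.63 and the edgeR adjusted p was 0.723. When single libraries were left out, the log2 fold change ran from -0.62 without shtRF replicate 1 to 0.09 without shtRF replicate 3, and it was -0.43 without control replicate 3.

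The other MT1 members were at or near 0. MT1E (chr16:56625475-56627112) had 0, 10 and 2 counts in control libraries and 0 in each shtRF library. MT1M (chr16:56632233-56633986) had 4 counts in control replicate 3 and 0 in the other 5 libraries. MT1G (chr16:56666731-56668065, minus strand) had 2 counts in shtRF replicate 3 alone, and MT1H (chr16:56669814-56671129) had 1 count in shtRF replicate 2 alone. None of the 4 passed the filter on low counts. A count of 0 allows up to 3 counts, which is 0.0376 to 0.0484 CPM depending on the library. This limit covers counting error only and takes counts as independent. At 10 counts, MT1E in control replicate 2 was the one value of these 4 genes well above that limit.

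Small counts in the family were mostly even. Of the 30 family values between 1 and 99, 26 were even (86.7%), against 67.5% of such values over the whole table. Whether both mates of a read pair were counted is not given in the sources used here. A count of 2 may then not stand for 2 independent fragments.

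Beside the members, 6 further family genes were listed, all at low counts. MT3, a brain-enriched metallothionein, and MT4, known from stratified epithelium, had at most 2 counts in any library. MT1B, MT1HL1 and RP11-249C24.12, which has the coordinates of the annotated pseudogene MT1IP, also had at most 2. The pseudogene MT1P3 (chr20:35218009-35218185) had 4, 11 and 15 counts in control and 7, 2 and 2 in shtRF libraries. Of its 50-base windows, 54.7% were shared exactly with another gene of the family, and 29.9% of its exonic bases overlap MMP24-AS1, a gene outside the family. Where its reads came from was not tested.

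If each read was counted once, a total over the family does not depend on how reads were split among the listed genes. How reads with several matches were counted is not given, so the total may miss or repeat some. Another 8 annotated genes of the family, MT1A among them, were not listed. The 13 listed genes summed to 83.1, 87.5 and 78.0 CPM in control and 84.8, 78.5 and 68.6 CPM in shtRF libraries. The groups overlapped in the same way as for MT2A. Means were 82.9 ± 4.78 and 77.3 ± 8.16 CPM (SD, n = 3 each), with no test made of the sum. MT2A made up 97.7% to 98.8% of the family counts in every library. The other genes took 1.74%, 2.25% and 1.75% in control and 1.59%, 1.28% and 1.22% in shtRF libraries. The shtRF shares were all below the control shares, and no test was made of this difference. The exact binomial (Clopper-Pearson) 95% intervals of single libraries reached from 1.41% to 2.64% in control and from 0.914% to 1.95% in shtRF libraries. They cover counting error only and take counts as independent. These intervals would be too narrow if both mates of a read pair were counted.

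MTF1, the zinc-sensing transcription factor, spans chr1:37809567-37859620 on the minus strand (8024 exonic bases). Control libraries gave 45.9, 51.4 and 49.0 CPM, and shtRF libraries gave 55.5, 59.4 and 55.1 CPM. Every shtRF value lay above every control value. Means were 48.8 ± 2.74 and 56.7 ± 2.33 CPM (SD, n = 3 each), a rise of 1.16-fold. The log2 fold change was 0.22 ± 0.06 (SE), with a 95% interval of 0.09 to 0.34 and an edgeR adjusted p of 0.00532. The call held in all 13 alternatives, where adjusted p ran from 0.00274 to 0.0462.

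SLC30A1, the plasma membrane zinc exporter, spans chr1:211571568-211578742 on the minus strand (5474 exonic bases). Control libraries gave 11.3, 14.1 and 12.3 CPM, and shtRF libraries gave 10.5, 11.1 and 9.80 CPM. The groups did not overlap, but the highest shtRF value was close to the lowest control value. Means were 12.5 ± 1.43 and 10.5 ± 0.635 CPM (SD, n = 3 each), a ratio of 0.835. The log2 fold change was -0.26 ± 0.09 (SE), with a 95% interval of -0.45 to -0.07 and an edgeR adjusted p of 0.0306. The call was lost without control replicate 2 (edgeR adjusted p = 0.182), without shtRF replicate 1 (0.0607) and without shtRF replicate 3 (0.141). In these bulk libraries, fewer cells with the mRNA and less of it per cell cannot be told apart, here and for every gene that follows.

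**Figure D3:**
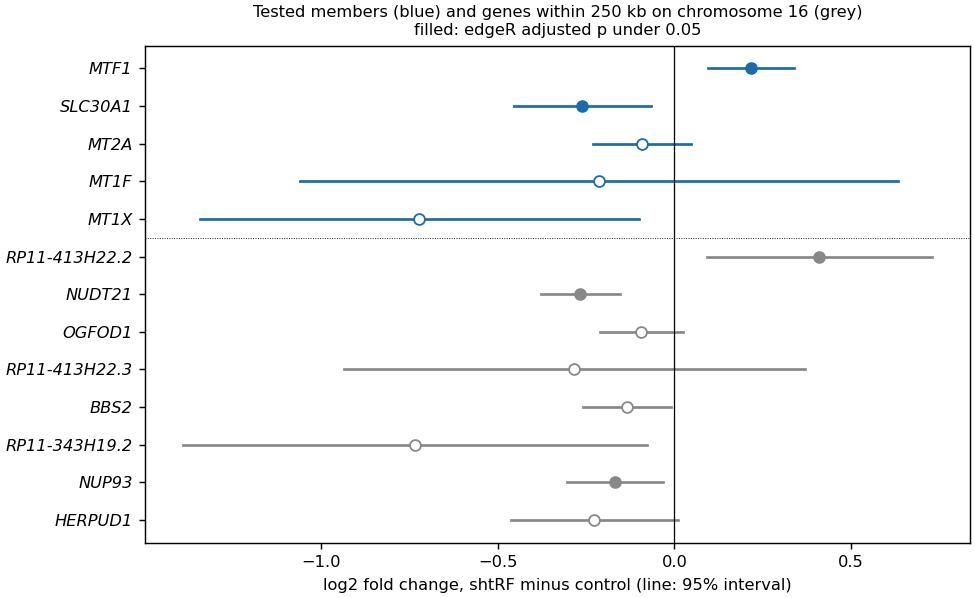
Log2 fold change (shtRF minus control, x axis) with its 95% interval for the 5 tested members (blue) and 8 of the 9 tested genes within 250 kb of the cluster (grey, 1 not reported here), filled where the edgeR adjusted p was below 0.05. The intervals of MTF1 (0.09 to 0.34) and SLC30A1 (-0.45 to -0.07) lie on opposite sides of 0, those of MT2A and MT1F cross it, and MT1X at -0.72 is not filled.

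Levels of different genes were compared per length, as RPKM. MT2A averaged 60.7 RPKM over the 6 libraries, followed by MTF1 at 6.56 and SLC30A1 at 2.11 RPKM. MT1X averaged 0.388 RPKM and MT1F 0.254 RPKM. MT2A ranged from 50.9 to 67.5 RPKM, so its lowest library lay well above the highest of any other member. MT1X (0.266 to 0.597 RPKM) and MT1F (0.117 to 0.349 RPKM) were neighbours in this order whose library values overlapped, while the values of MT2A, MTF1, SLC30A1 and MT1X did not overlap one another.

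**Figure D4:**
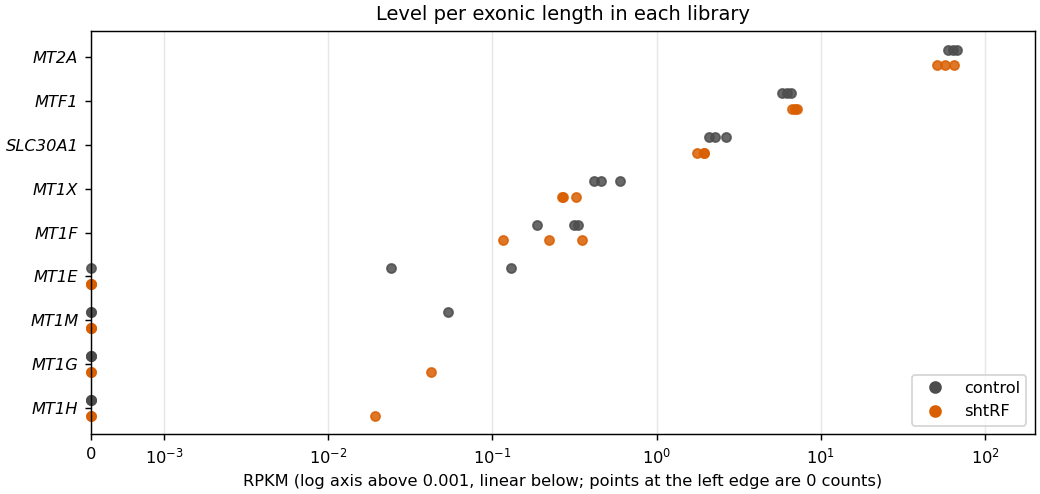
Level per length in RPKM (x axis, logarithmic above 0.001 and linear below) of the 9 listed members, 1 point per library, grey for control and orange for shtRF. MT2A lies at 50.9 to 67.5 RPKM, above MTF1 and SLC30A1, with the MT1 genes below 1 RPKM and many of their points at 0.

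Genes around the cluster were called in both directions, as were genes over the whole table. Within 250 kb of the span from MT2A to MT1X, 13 further genes were listed, of which 9 were tested, 2 rose and 2 fell. Of all tested genes, 39.5% were called, 20.6% higher and 18.9% lower. No test compared the 9 genes with that background. The 9 include the gene described above that overlaps MT1X, so not all of them are separate from the cluster. NUDT21, a subunit of the cleavage factor that sets poly(A) sites, fell from 96.4 to 80.2 CPM (log2 fold change -0.27, edgeR adjusted p = 4.04e-04). It was far more abundant in counts than any MT1 gene, and its groups did not overlap.

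Other calls near the cluster were less stable. NUP93, a nuclear pore protein, had a log2 fold change of -0.17 (edgeR adjusted p = 0.0474). Its call was lost on leaving out control replicate 2 or 3 or any of the 3 shtRF libraries (edgeR adjusted p 0.0514 to 0.206). The call was also lost with no filter beyond 1 count (edgeR adjusted p = 0.0768). RP11-413H22.2, which shares 30.1% of its exonic bases with another gene, had a log2 fold change of 0.41 (edgeR adjusted p = 0.0379). Its call was lost without control replicate 1 or 3 or shtRF replicate 1 or 3 (edgeR adjusted p 0.0537 to 0.182). Upper-quartile scaling (edgeR adjusted p = 0.0585) and no filter beyond 1 count (0.0508) lost it too. OGFOD1 (log2 fold change -0.09), BBS2 (-0.13) and RP11-413H22.3 (-0.28) did not pass. HERPUD1, a gene of the endoplasmic reticulum stress response, did not pass either at -0.23 (edgeR adjusted p = 0.124). Control replicate 3, at 19.8 CPM, stood apart there from the other controls at 30.9 and 30.6 CPM, and without it adjusted p was 1.00e-04. RP11-343H19.1, DPPA2P4, SLC12A3 and RPS24P17 were listed but did not pass the filter on low counts.

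Other zinc carriers included called genes in both directions. Of 22 exporters and importers beside SLC30A1, 16 were tested, 5 rose, 2 fell and 9 did not pass, and the median log2 fold change was 0.138, beside -0.00251 for all tested genes. The called share was 43.8%, against 39.5% of all tested genes. SLC39A10, which takes zinc up at the plasma membrane, gave 13.8, 14.8 and 16.01 CPM in control and 8.73, 9.01 and 8.72 CPM in shtRF libraries. The groups were far apart, and the log2 fold change was -0.75 (edgeR adjusted p = 2.99e-07). SLC39A1, another plasma membrane importer, gave 71.5, 73.7 and 77.5 CPM in control and 103, 101 and 101 CPM in shtRF libraries. It rose by 0.45 on the log2 scale (edgeR adjusted p = 4.26e-07). The 2 importers thus moved in opposite directions.

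SLC39A11 and SLC39A3, also of the importer family, rose by 0.36 and 0.23 on the log2 scale (edgeR adjusted p = 0.00784 and 0.0303). The call of SLC39A3 was lost without control replicate 2 or 3 or shtRF replicate 2 or 3 (edgeR adjusted p 0.0705 to 0.122). Upper-quartile scaling (edgeR adjusted p = 0.0656) and no filter beyond 1 count (0.0638) lost it too. The most abundant genes that did not pass were SLC39A9, a carrier of the secretory pathway, at -0.06, and SLC30A9, a mitochondrial zinc transporter, at -0.10. SLC30A2, SLC30A3, SLC30A10, SLC39A2, SLC39A5 and SLC39A12 were not tested.

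Copper, the other metal that metallothioneins bind, was followed through 16 genes of uptake, delivery and export. Of these 15 were tested, 2 rose, 3 fell and 10 did not pass, with a median log2 fold change of 0.0653. The called share was 33.3%, against 39.5% of all tested genes. STEAP3, an endosomal metalloreductase best known from iron uptake, gave 12.2, 11.6 and 10.5 CPM in control and 3.43, 2.52 and 2.52 CPM in shtRF libraries. All shtRF values were far below the controls, with a log2 fold change of -2.01 (edgeR adjusted p = 2.03e-11), and 11.0% of its exonic bases overlap STEAP3-AS1. CCS, the chaperone that loads copper into SOD1, rose by 0.30 on the log2 scale (edgeR adjusted p = 0.00206), and 10.6% of its exonic bases overlap CCDC87.

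The calls of the copper importer and of the cytosolic chaperone were less stable. ATOX1, which hands copper to the export pumps, had a log2 fold change of 0.33 (edgeR adjusted p = 0.0121), lost without control replicate 1 or 2 or shtRF replicate 1 (0.0501 to 0.0934). SLC31A1, the high-affinity copper importer, had -0.32 (edgeR adjusted p = 0.0158), lost without the same libraries (0.0505 to 0.0847). SOD1, the copper-zinc superoxide dismutase, had -0.13 and did not pass (edgeR adjusted p = 0.0534). It passed in 5 of 13 alternatives, among them upper-quartile scaling (edgeR adjusted p = 0.0166) and the fit without control replicate 1 (0.0405). Without control replicate 3 its edgeR adjusted p was 0.181. COX17, a mitochondrial copper chaperone, had 0.14 and did not pass (edgeR adjusted p = 0.121, or 0.0185 without control replicate 3), and 17.6% of its exonic bases overlap POPDC2. STEAP2 was not tested.

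Of the lists, that of metal and oxidant stress genes, which are induced by the same insults as metallothioneins, was the one with calls in a single direction. All 16 were tested, 9 rose, 0 fell and 7 did not pass, with a median log2 fold change of 0.220. The called share was 56.2%, against 39.5% of all tested genes called and 20.6% called higher. HMOX1, the inducible heme oxygenase, gave 4.30, 4.95 and 5.14 CPM in control and 13.0, 10.2 and 13.0 CPM in shtRF libraries. No value overlapped, and the log2 fold change was 1.32 ± 0.11 (SE, edgeR adjusted p = 3.05e-09).

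NQO1, a quinone reductase, rose from 212 to 347 CPM (log2 fold change 0.71, edgeR adjusted p = 3.08e-10), with 17.7% of its exonic bases in CTD-2033A16.1. OSGIN1, an oxidative stress induced growth inhibitor, rose from 2.54 to 5.53 CPM (1.12, edgeR adjusted p = 3.49e-07), with 13.9% of its exonic bases in RP11-505K9.4. SQSTM1, the autophagy receptor p62, rose by 0.32 on the log2 scale (edgeR adjusted p = 6.17e-05), with 22.0% of its exonic bases in MGAT4B or C5orf45. FTH1, the ferritin heavy chain, did not pass at -0.03, and 62.4% of its exonic bases overlap BEST1. HSPA1A, an inducible heat shock protein with the near-identical copy HSPA1B, did not pass at 0.15 (edgeR adjusted p = 0.163, or 0.00120 without control replicate 3). HSPA1B was itself called higher at 0.27 (edgeR adjusted p = 0.0191), although its groups overlapped. MT2A, at -0.09, did not pass either, but the difference between its change and those of the called genes of this list was not tested.

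Glucocorticoid-responsive genes were read because MT2A is one of them. Of 14 listed, 12 were tested, 2 rose, 4 fell and 6 did not pass, with a median log2 fold change of 0.0744. The called share was 50%, against 39.5% of all tested genes. TSC22D3, the glucocorticoid-induced leucine zipper, gave 103, 96.5 and 66.2 CPM in control and 55.0, 57.8 and 63.5 CPM in shtRF libraries. The groups did not overlap, although control replicate 3 lay near the shtRF libraries, and the log2 fold change was -0.59 (edgeR adjusted p = 8.01e-05). NFKBIA, the inhibitor of NF-kappa-B, fell by 0.33 on the log2 scale (edgeR adjusted p = 4.71e-05).

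KLF9, a zinc finger repressor, and PER1, a clock gene, moved in opposite directions. KLF9 had a log2 fold change of -0.44 (edgeR adjusted p = 0.0225), lost without control replicate 1 or 2 or shtRF replicate 1 or 3 (0.0509 to 0.0990). PER1 had 0.42 (edgeR adjusted p = 0.0212), lost without control replicate 1 or 3 or shtRF replicate 1 or 3 (0.0503 to 0.0995). ERRFI1 at 0.06 and DUSP1 at 0.27 did not pass. SGK1 and ZBTB16 were not tested.

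Among transcription factors of metallothionein promoters beside MTF1, calls were mostly lower. All 12 were tested, 1 rose, 7 fell and 4 did not pass, with a median log2 fold change of -0.202. The called share was 66.7%, against 39.5% of all tested genes. BACH1, a repressor of HMOX1 and other oxidant response genes, gave 10.6, 11.3 and 9.58 CPM in control and 5.65, 5.43 and 7.06 CPM in shtRF libraries. It fell by 0.80 on the log2 scale without overlap (edgeR adjusted p = 3.95e-06).

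SP1 and SP3, which bind the GC boxes common in such promoters, fell by 0.34 and 0.32 on the log2 scale (edgeR adjusted p = 2.63e-05 and 6.43e-05). CTCF, an insulator protein, at -0.09 and USF2, an E-box factor, at -0.11 did not pass. The glucocorticoid receptor gene NR3C1 stands in this list and in the glucocorticoid list. The lists share no other gene.

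**Figure D5:**
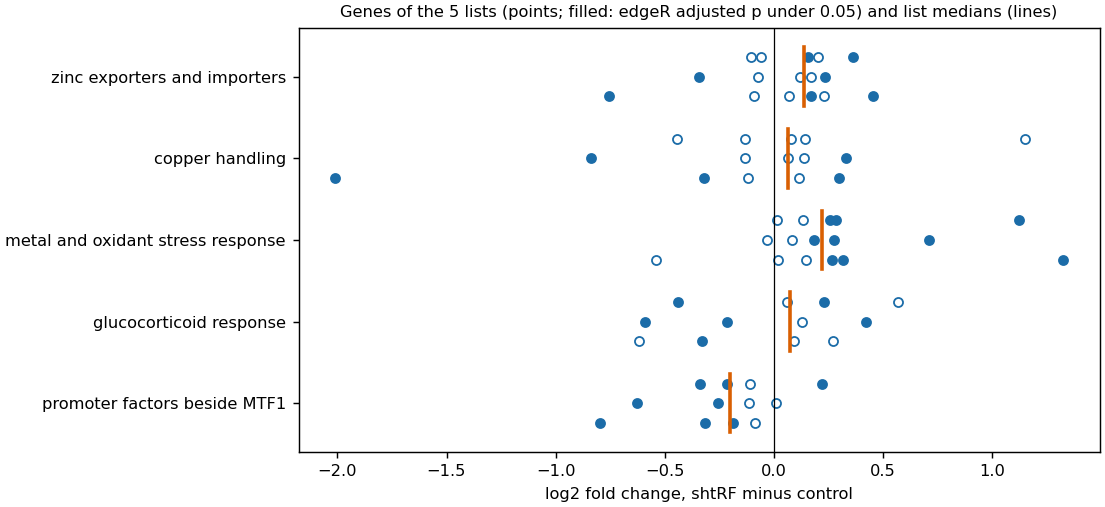
Log2 fold change (shtRF minus control) of every tested gene in the 5 lists, 1 point per gene, filled where the edgeR adjusted p was below 0.05, with a line at each list's median. The median lies between -0.202 for the promoter factors and 0.220 for the metal and oxidant stress genes.

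The genes most like MT2A across the libraries were found among 13188 genes with a mean of at least 2 CPM. Likeness was the root mean square difference of centred log2(CPM + 1) over the 6 libraries, which had a median of 0.172 over those genes. VCPKMT was nearest at 0.0258, followed by CTD-2007L18.5 at 0.0326 and TMEM214 at 0.0357. PHOSPHO2 followed at 0.0360 and CD9 at 0.0361. A pattern close to that of MT2A follows from how these 5 were chosen. The 6 libraries share their depth and scaling across genes, so this order is a description.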

How the data were processed

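Stranded mRNA libraries of 3 control and 3 shtRF samples of MDA-MB-453 were sequenced as 150-base pairs, per the labels. The authors deposited raw read counts per gene with exon coordinates. The submitters' processing notes name Trimmomatic 0.36, featureCounts (Subread 1.5.1), edgeR 3.12.1 and GRCh38. The aligner and the strand, pair and multi-mapping settings are not given in the sources used here. A second deposited table, of RPKM values, was not used, and RPKM was computed from count, exonic length and library total.

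Groups were taken from the sample titles. Differential expression was tested on the counts as deposited with edgeR 4.0.16 (R 4.3.3): filterByExpr with a minimum count of 10, TMM scaling, the quasi-likelihood test with group as the only term and Benjamini-Hochberg adjustment over all 19628 genes tested. TMM factors ran from 0.961 to 1.03, and the common dispersion was 0.00572. CPM values use TMM-scaled library sizes. A gene was called at an adjusted p below 0.05. The procedure was tested on simulated data. Intervals of fold changes include the spread between libraries. Intervals of shares and limits at 0 counts cover counting error only and take counts as independent.

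The genes and lists were chosen with earlier results of these data known. The text names all members, all listed metallothionein genes and all genes within 250 kb of the cluster. In each list it names up to 4 called genes with the largest change, a mean of at least 2 CPM and no overlap between the groups, and up to 2 of the most abundant genes not called. It also names the 5 genes nearest to MT2A in pattern. A few genes that meet these rules are counted in the totals but not reported here by name. Coding and transcript sequences came from GENCODE release 29 and promoters from RefSeq, so a promoter start can differ from the first exon base of the count table. Alternatives were RLE and upper-quartile scaling, 2 other filters, DESeq2 1.42.0, a replicate block, counts divided by 2, and leaving out each library.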

Additional observations from a re-analysis of the deposited data

How the results depend on the processing

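The number of members called higher was 1 in every alternative run, always MTF1. The number called lower was 1 and became 2 under upper-quartile scaling, under a filter of 10 counts per library and after dividing counts by 2, where MT1X joined SLC30A1. It ran from 0 to 1 when single libraries were left out, because SLC30A1 was lost without control replicate 2, shtRF replicate 1 or shtRF replicate 3. Over all genes, 4046 higher and 3704 lower calls became 3936 and 3672 with DESeq2, and leaving out single libraries gave 3375 to 3950 higher and 3053 to 3601 lower. Upper-quartile scaling gave 3508 higher and 4174 lower. Between control and shtRF libraries of the same number, deviations were only weakly correlated (0.0592, 0.0178 and 0.0174). Pairs with different numbers gave -0.0765 to 0.0562. With 3 libraries per group, these values cannot decide whether the numbers pair the samples. A fit with a replicate block called 1 member higher and 1 lower, and 4123 higher and 3776 lower over all genes. Of the genes that meet the naming rules, HSPA1A alone changed its call under the block (edgeR adjusted p = 0.0411). Among 44 genes that meet the naming rules, 519 of 572 alternative values kept their side of the threshold, 35 lost the call, 18 gained it and 0 reversed a called change. The causes were not tested. MT2A stayed uncalled in all alternatives, with a log2 fold change of -0.17 to -0.01 and an adjusted p of 0.0657 to 0.922 (edgeR or DESeq2). Of the 9 listed members, 4 had too few counts for a test, all of them MT1 genes.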
